A study of Solenopsis invicta with 52 samples.

Results

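The brains of 7 SB/Sb workers (group pBL) were compared with the brains of 7 SB/SB workers (group pBB) of Solenopsis invicta, the red imported fire ant, in counts of RNA-seq reads per gene. These 14 libraries were taken, by the tissue and genotype in their labels, from 52 libraries of brains and gasters, the gaster being the rear part of the abdomen. All 16314 gene identifiers were considered, and the 12006 that passed a filter on low counts were tested. Workers of both groups were dark pupae from polygyne donor colonies, were placed into polygyne host colonies of another stock, and were collected on day 16 after the transfer, at 14 to 16 days of age and 0.6 to 0.9 mg of body mass. Every host held 250 workers and 2 egg-laying SB/Sb queens, so that origin, host form, queen genotype, age and size class were shared and the labels give the genotype as the difference. Each library came from the brain of a single worker, and within a treatment no stock colony gave or received pupae more than once. The colonies were collected in the field, so the comparison is of whole natural haplotypes and not of a single engineered allele. Further SB/SB brains were used for reference levels, 7 of monogyne origin in polygyne hosts (mpBB) and 7 of monogyne origin in monogyne hosts with 1 SB/SB queen (mBB).

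SB and Sb are alternative haplotypes of a supergene, a long block of linked genes that inversions keep from recombining in SB/Sb ants, so that it passes to offspring nearly as a single unit. Colonies with Sb-bearing queens and workers accept several egg-laying queens (polygyne), whereas colonies of SB/SB ants keep a single queen (monogyne). An SB/Sb worker carries an SB and an Sb copy of the genes in the block, and workers are known to tell queens apart by odours that the brain processes. Gp-9, an odorant-binding protein gene in the block that is used as its genetic marker, was not analysed here, because a lookup of the 16314 identifiers in the gene table at hand found 0 of them and the files do not pair identifiers with names. For the same reason lists of receptor, neuropeptide and hormone genes were not described, and the brain label was not checked against neuronal or glial markers. Genes are therefore described by level, direction and place, with a small number by identifier.

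The pBL libraries held 18.9 to 44.8 M counts in genes (median 25.7 M) and the pBB libraries 22.7 to 45.2 M (median 29.04 M). Reads assigned to genes made up 25.3% to 41.6% of reads in pBL and 28.6% to 40.5% in pBB, and unmapped reads made up 6.94% to 29.2% in pBL and 6.73% to 21.7% in pBB. Brain pBL replicates 2 and 6 and mBB replicate 4 stood apart from the other brains, with a median correlation to them over 3 MAD (median absolute deviations) below the median of all 28. On the first principal component, which held 17.3% of the variance, pBL lay at -9.94 to 55.5 and pBB at -19.3 to 17.1, a wide overlap. On the second principal component, which held 10.8% of the variance, pBL lay at 8.26 to 29.6 and pBB at -10.1 to 10.8, so that the ranges overlapped. Over the tested genes the median SD of log2 CPM among libraries was 0.34 in pBL and 0.27 in pBB, and it was 0.30 in pBL without replicates 2 and 6.

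Few genes differed between SB/Sb and SB/SB brains, and most of those were higher in SB/Sb. With edgeR's quasi-likelihood test and a threshold of 0.05 on the adjusted p, 62 genes were called, which is 0.516% of those tested. Of these, 55 were higher in pBL (0.458% of those tested) and 7 were lower (0.0583%). The higher genes together made up 1040 ± 70.2 CPM (a gene's count relative to the size of its library) in pBL brains and 461 ± 25.9 CPM in pBB brains (SD, n = 7 each), and the lower genes 297 ± 27.1 CPM in pBL and 468 ± 46.7 CPM in pBB. All called genes together took 0.134% of the counts in pBL and 0.0930% in pBB. The median log2 fold change was 2.53 for the higher genes (0.36 to 9.71) and -1.04 for the lower genes (-1.60 to -0.46), against 0.02 for all tested genes. Among the higher genes, 9 changed by less than 2-fold, 14 by 2 to 4-fold, 13 by 4 to 16-fold and 19 by more than 16-fold. Among the lower genes, 3 changed by less than 2-fold and 4 by 2 to 4-fold, with none beyond that. These groups were formed by the same test, so their sizes and sums are a description of the called genes. The test used group means and left out the pairing of brains by replicate number. With the replicate number as a block, 67 genes were called, 58 higher and 9 lower, and 52 of them were among the 62.

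**Figure D1:**
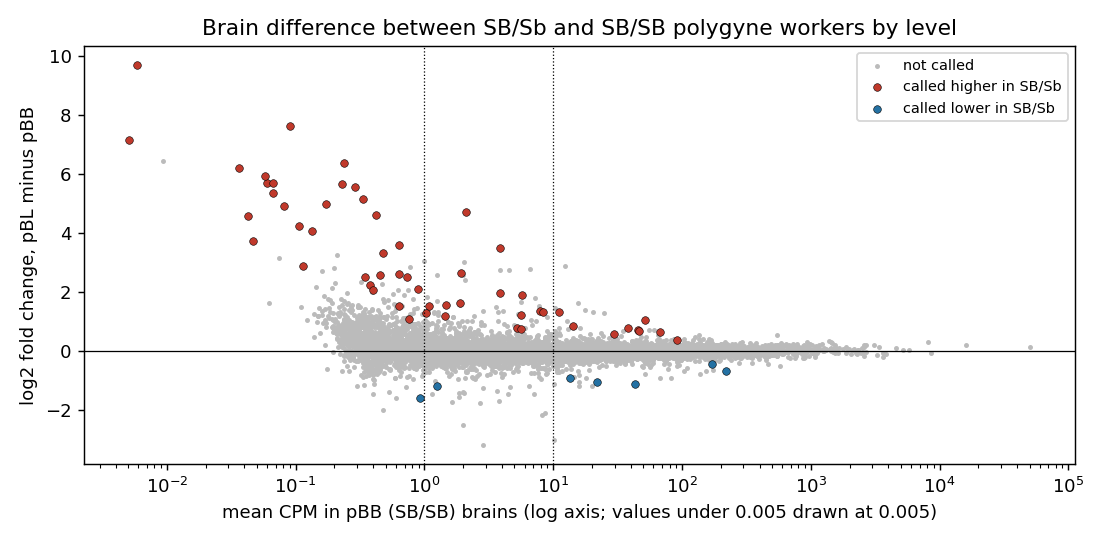
Each point is a tested gene, placed by its mean CPM in the 7 pBB brains (log axis, values under 0.005 drawn at 0.005) and by its log2 fold change, pBL minus pBB; red genes were called higher and blue genes lower, and the dotted lines mark 1 and 10 CPM. The 55 higher genes reach the largest fold changes where pBB levels are low, whereas the 7 lower genes stay between -1.60 and -0.46. The pBB level is also part of the fold change, so the axes are not independent.

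Library by library, most of the called genes kept the groups apart. In 46 of the 62 called genes the pBL and pBB values did not overlap, 43 of them higher and 3 lower, where 53 of all tested genes (0.441%) had groups that do not overlap. Brains of pBL and pBB with the same replicate number deviated together from their group means, and 61 of the 62 genes moved the same way in all 7 of these pairs, against 313 of all tested genes (2.61%). The remaining gene, SINVBB1_08239, did so in 6 pairs. Within the 7 pairs, the median log2 difference of the higher genes with a pBB mean under 1 CPM was 3.22 to 3.84, that of the other higher genes 1.03 to 1.39, and that of the lower genes -1.58 to -0.47. The genes were called in these same libraries, so that the separation and the agreement over pairs follow largely from the calls and are no added support.

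Genes lay near the threshold on both sides, and 50 of the called genes stayed called whichever single library was left out. The highest adjusted p among called genes by edgeR was 0.0466, the lowest among the others was 0.0538, and 9 genes lay between 0.05 and 0.1, of which 6 were higher. An unadjusted p under 0.05 was reached by 425 genes, 271 higher and 154 lower, where 600.3 would be reached with no difference at all. An unadjusted p under 0.001 was reached by 80 genes, 66 higher and 14 lower, where the same reckoning gives 12.006. The number and balance of these weaker differences depended on the fit. With the replicate number as a block, 696 genes (363 higher, 333 lower) had an unadjusted p under 0.05, above the 572 that no difference would give, and with surrogate variables 839 (433 higher, 406 lower). Without the distant libraries the count was 662 (304 higher, 358 lower), and without pBL replicate 2 alone it was 476 (210 higher, 266 lower), so that the excess of higher genes at this level turned round. The median standard error of a log2 fold change was 0.17 over all tested genes and 0.48 over those with a pBB mean under 1 CPM.

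The number of calls depended on the test and on the number of brains. DESeq2 called 102 genes and a fit with surrogate variables 101, both including all 62, and the surrogate variables moved the share of calls that were higher to 78.2%, against 88.7% without them. Within workers whose individual number was under 140 (3 per group) 12 genes were called, and within those over 140 (4 per group) 38.

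The largest class of called genes had a mean under 1 CPM in pBB brains. Of the 1628 tested genes with a pBB mean under 1 CPM, 32 were called (1.97%), 31 of them higher, with log2 fold changes of 1.07 to 9.71 and a median of 4.58. Summed over these 31 genes, pBL brains held 144 to 185 CPM and pBB brains 5.34 to 11.2 CPM. At least 24 and at most 30 of the 31 genes reached 1 CPM in each pBL brain, against at most 2 in pBB, at most 4 in mpBB and at most 3 in mBB brains. Since the genes were picked in these pBL and pBB brains, this separation follows from the choice. The class was cut on the pBB mean, which is also part of the fold change. A gene this low in pBB has little room to be called lower. The share called, the direction and the size of the changes therefore follow in part from the cut. Over all 1628 tested genes of the class the median log2 fold change was 0.26, against 0.02 over all tested genes. In bulk tissue a gene that is active in fewer cells and a gene with less RNA per cell cannot be told apart.

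SINVBB1_01163 had the highest level of this class over the 14 brains. Its level was 11.98, 16.4 and 36.9 CPM in the lowest, median and highest pBL brain, against 0.107, 0.201 and 0.359 CPM in the lowest, median and highest pBB brain. No pBL brain came near the pBB range. Group means were 19.7 ± 8.54 CPM in pBL and 0.236 ± 0.0952 CPM in pBB (SD, n = 7 each), a log2 fold change of 6.36 ± 0.39 (SE, adjusted p = 3.06e-12 by edgeR). The call held in all 29 alternative settings, with log2 fold changes of 6.13 to 6.83.

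SINVBB1_10484e, chosen after its values were seen, was the only gene at 1 CPM or more in all 7 pBL brains and under 0.1 CPM in all 7 pBB brains, and 0 genes met the opposite condition. Its lowest, median and highest pBL levels were 4.59, 7.44 and 10.9 CPM. The pBB brains together held 1 count, in replicate 6, and the mpBB and mBB brains held 0, against 1381 counts in pBL. Scaled by library size, the pBL to pBB ratio of counts was 1539, with a 95% counting interval of 276 to 60849, which covers counting error only. The fitted log2 fold change was 9.71 ± 0.49 (SE, adjusted p = 1.39e-09 by edgeR), which depends on the prior count of the fit.

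SINVBB1_08239, also chosen after its values were seen, differed among the SB/Sb brains themselves. It stood at 15.8, 1.97, 13.4, 0.0734, 0.0793, 21.6 and 27.5 CPM in pBL replicates 1 to 7, against 0, 0.0682 and 0.579 CPM in the lowest, median and highest pBB brain. Replicates 4 and 5 of pBL thus lay within the SB/SB range, and the other 5 lay above it. The log2 fold change was 5.68 ± 1.06 (SE, adjusted p = 0.00276 by edgeR), and with the replicate number as a block it was 5.00 with an adjusted p of 0.198, so that the call ended in the paired fit. In the gasters, pBL replicate 5 was again low, at 0.0421 CPM, against 2.64 to 10.2 CPM in the other 5 pBL gasters and at most 0.0537 CPM in pBB gasters. In the same class, SINVBB1_01503 was at 0.198 CPM in pBL replicate 5, below the highest pBB brain at 0.207 CPM.

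Single genes of this class reached the lowest pBL level in 15 of the 21 SB/SB brains, over 8 genes in all, and without SINVBB1_08239, whose lowest pBL levels were within the SB/SB range, in 8 brains over 7 genes. Brains mpBB replicate 15 and mBB replicate 4 each did so for 4 genes, mpBB replicate 16 for 3, and pBB replicates 2 and 6 for 2 each. In mpBB replicate 15 there were 1.32 CPM of SINVBB1_12864, 1.87 CPM of SINVBB1_13687, 0.901 CPM of SINVBB1_01503 and 0.624 CPM of SINVBB1_11518b, each at or above the lowest pBL brain. In mBB replicate 4 there were 0.934 CPM of SINVBB1_08239, 0.467 CPM of SINVBB1_04158, 0.849 CPM of SINVBB1_11518b and 0.255 CPM of SINVBB1_01503. Both brains lay below every pBL brain for the other 27 genes of the class.

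**Figure D2:**
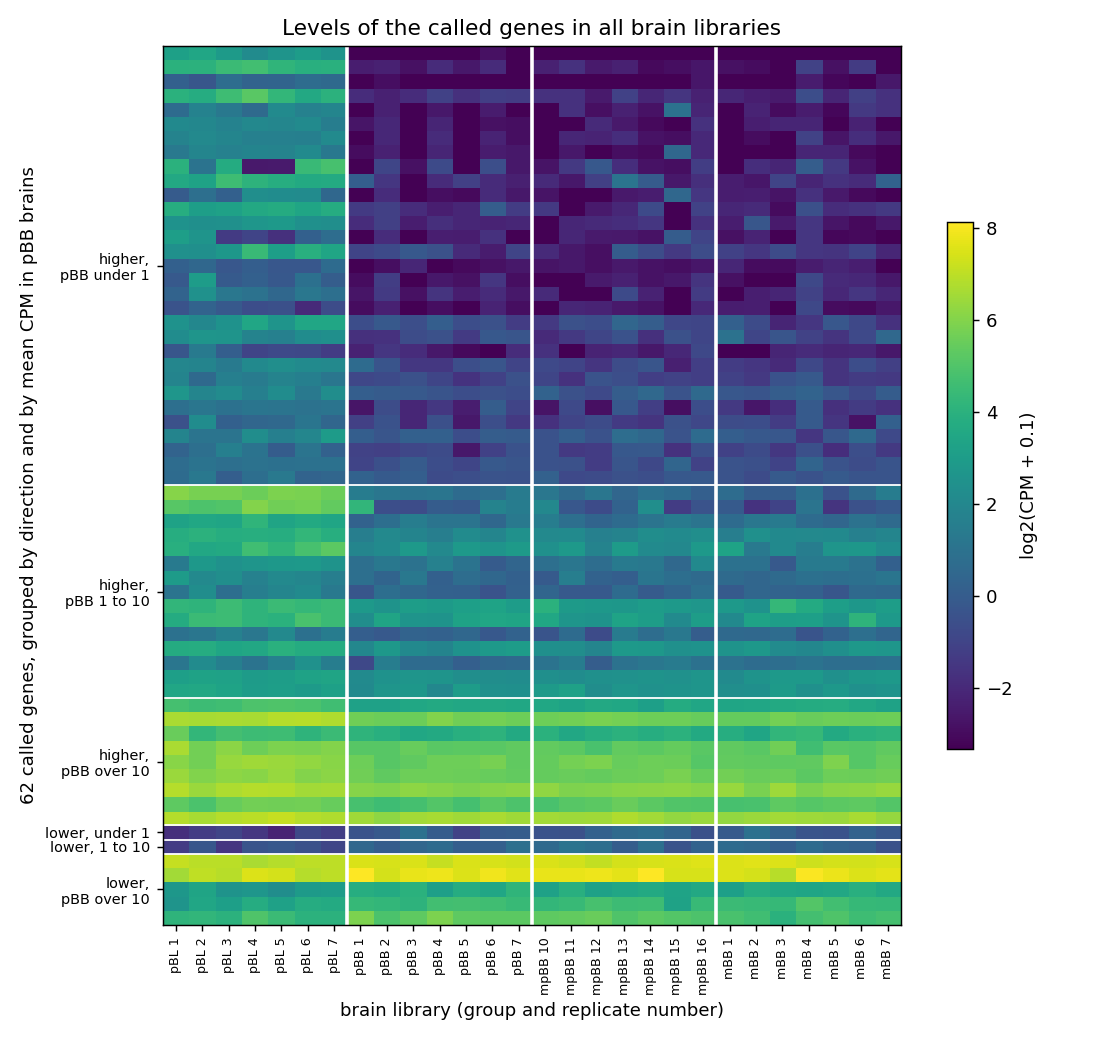
Rows are the 62 called genes, grouped by direction and by mean CPM in pBB brains, columns are the 28 brain libraries by group and replicate number, and colour is log2(CPM + 0.1). The 31 higher genes with pBB means under 1 CPM form a block that is light in the 7 pBL columns and dark in the 21 SB/SB columns, with dark cells of SINVBB1_08239 in pBL replicates 4 and 5.

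Called genes that SB/SB brains already expressed changed less, in classes cut on the same pBB mean. Of the 2678 tested genes with a pBB mean of 1 to 10 CPM, 16 were called (0.597%), 15 of them higher with a median log2 fold change of 1.53 (0.74 to 4.70). Of the 7700 genes above 10 CPM, 14 were called (0.182%), 9 of them higher with a median of 0.72 (0.36 to 1.32) and 5 lower with a median of -0.93 (-1.11 to -0.46). The median standard error over the tested genes also fell with level, at 0.25 and 0.13, so that smaller changes could be called among highly expressed genes.

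SINVBB1_09648 was the expressed higher gene with the highest level. It stood at 100.2, 116 and 139 CPM in the lowest, median and highest pBL brain, against 72.3, 92.2 and 103 CPM in the lowest, median and highest pBB brain, so that 6 of 7 pBL brains lay above every pBB brain. Its log2 fold change was 0.36 ± 0.08 (SE, adjusted p = 0.0438 by edgeR). The call was lost in 17 of 29 alternative settings, 11 of them leaving out a single library, always with the same direction (0.30 to 0.40).

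SINVBB1_00994, chosen after its values were seen, was at 98.8, 104 and 121 CPM in the lowest, median and highest pBL brain, against 46.7, 50.5 and 61.8 CPM in the lowest, median and highest pBB brain. All pBL brains lay above all SB/SB brains, the highest of which was that pBB brain. Means were 108 ± 8.39 CPM in pBL and 51.4 ± 5.08 CPM in pBB (SD, n = 7 each), next to 50.4 CPM in mpBB and 47.3 CPM in mBB. The log2 fold change was 1.06 ± 0.07 (SE, adjusted p = 3.38e-11 by edgeR) and ran from 1.03 to 1.11 over all 29 alternative settings, with the call held in each.

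Among genes with a pBB mean of 1 CPM or more, SINVBB1_06655 and SINVBB1_04895 had the largest fold changes, and both were chosen after their values were seen. SINVBB1_06655 was at 47.5, 55.0 and 66.0 CPM in the lowest, median and highest pBL brain, against 1.52, 2.09 and 2.70 CPM in the lowest, median and highest pBB brain (log2 fold change 4.70 ± 0.24 SE, adjusted p = 8.73e-14 by edgeR). SINVBB1_04895 was at 30.6, 41.7 and 65.4 CPM in the lowest, median and highest pBL brain, against 0.527, 0.914 and 18.3 CPM in the lowest, median and highest pBB brain. The 2 groups did not overlap for either gene, but pBB replicate 1 held 18.3 CPM of SINVBB1_04895 where the next pBB brain held 3.35 CPM. Its log2 fold change of 3.50 ± 0.70 (SE, adjusted p = 0.00705 by edgeR) ran from 3.31 to 4.91 when each library was left out in turn. With the replicate number as a block it was 4.56.

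The 7 lower genes were changed only moderately, and 5 of them were expressed above 10 CPM in SB/SB brains. SINVBB1_12867 was at 103, 125 and 138.8 CPM in the lowest, median and highest pBL brain, against 139.4, 175 and 182 CPM in the lowest, median and highest pBB brain. The ranges met without overlapping, pBB replicate 4 being the low one. Its log2 fold change was -0.46 ± 0.08 (SE, adjusted p = 0.000962 by edgeR), and the call was lost in 2 of 29 alternative settings, those within workers numbered under and over 140. SINVBB1_09468 was at 94.3, 128 and 184 CPM in the lowest, median and highest pBL brain, against 171, 219 and 281 CPM in the lowest, median and highest pBB brain. Replicates 4 and 5 of pBL overlapped with the pBB range. The log2 fold change was -0.69 ± 0.15 (SE, adjusted p = 0.0235 by edgeR), and with the replicate number as a block it was -0.70 with an adjusted p of 0.121, so that the call ended while the size stayed. The call was lost in 13 of 29 alternative settings, 7 of them leaving out a single library, with log2 fold changes of -0.95 to -0.51 over all settings.

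SINVBB1_09782, chosen after its values were seen, was the only lower gene with a pBB mean under 1 CPM. It was at 0.119, 0.316 and 0.465 CPM in the lowest, median and highest pBL brain, against 0.380, 0.868 and 1.84 CPM in the lowest, median and highest pBB brain. The groups overlapped through pBB replicate 5. The log2 fold change was -1.60 ± 0.36 (SE, adjusted p = 0.0238 by edgeR), and the call was lost in 9 of 29 alternative settings, 4 of them leaving out a single library.

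**Figure D3:**
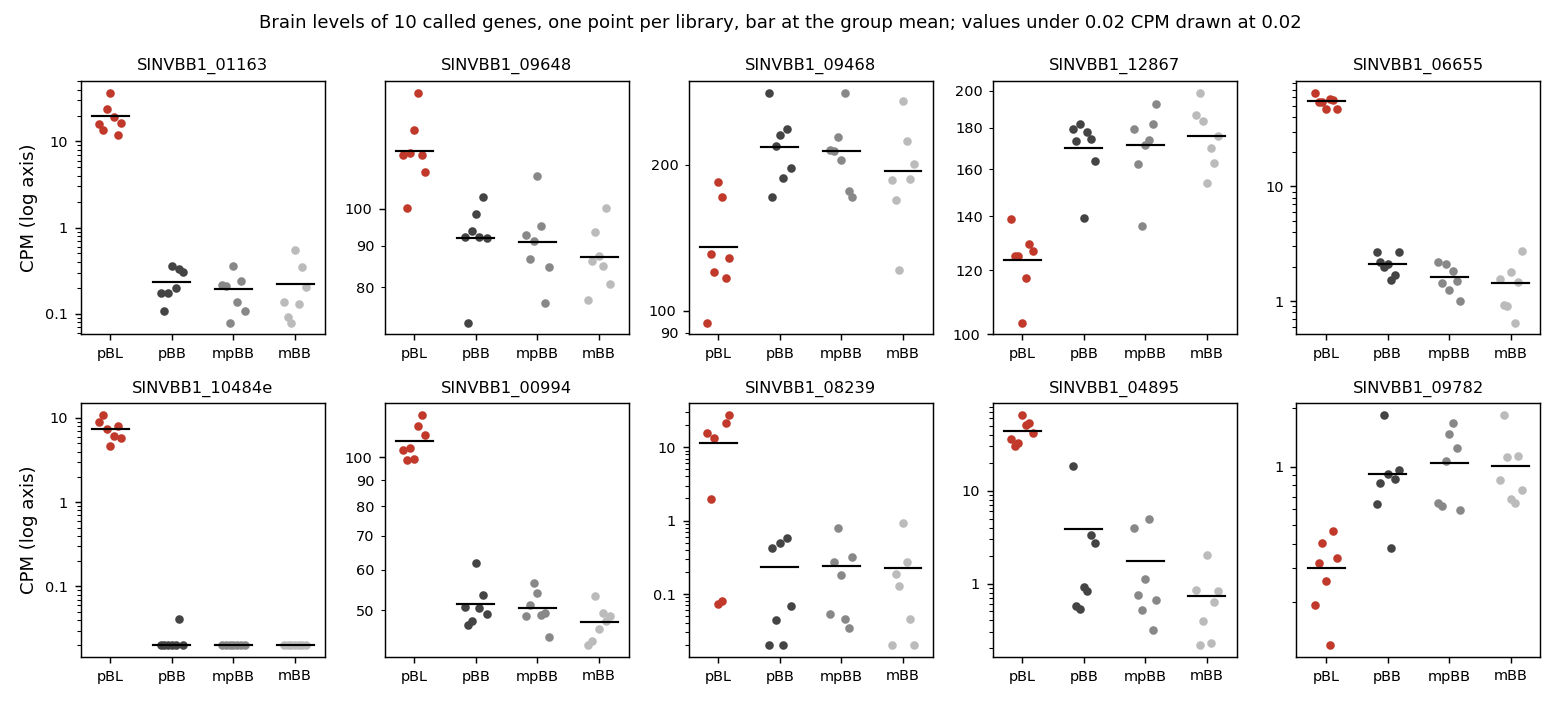
Each panel shows the CPM (log axis) of a called gene in the 28 brain libraries, a point per library and a bar at the group mean, for pBL and the SB/SB groups pBB, mpBB and mBB, with values under 0.02 CPM drawn at 0.02. SINVBB1_08239 has 2 pBL points within the SB/SB range, and SINVBB1_04895 has a pBB point at 18.3 CPM.

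The means of the 3 SB/SB groups lay within 1.5-fold of each other for 45 of the 62 called genes. Of the 30 called genes with a pBB mean of 1 CPM or more, 28 were among these 45. The exceptions were SINVBB1_04895, with 44.3 CPM in pBL and means of 3.89 CPM in pBB, 1.76 CPM in mpBB and 0.740 CPM in mBB, and the lower gene SINVBB1_03520, with 20.0 CPM in pBL, 43.1 CPM in pBB, 37.1 CPM in mpBB and 25.4 CPM in mBB. Of the 55 higher genes, 34 had every pBL brain above all 21 SB/SB brains and 53 had a pBL mean above all 21. Of the 7 lower genes, 0 had every pBL brain below all 21. Over all 12006 tested genes, 48 had every pBL brain above all 7 pBB brains and 5 had every one below. Counts against all 21 SB/SB brains cannot exceed these. The counts of means within 1.5-fold and of pBL means above all 21 were not taken over all tested genes. The pBB values had a part in calling these genes, so the comparison with mpBB and mBB is a description.

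Several of the called genes behaved otherwise in the gaster. In a joint edgeR fit of brains and gasters on the unstranded counts, 27 of the 62 genes were called in the gaster in the same direction and 1 in the opposite direction, where 0.773% of all 13452 genes were called in the gaster. The other 34 were not called there, and 6 of the 62 did not pass a low-count filter on the gasters alone. Whether the pBL minus pBB difference itself differed between brain and gaster was tested for each gene, and 13 of the 62 were called, against 0.26% of all genes. The 62 genes were called on the brain difference, which is also part of this test. Their larger share therefore follows in part from that choice and is a description. The same number, 13, was called with the individual as a block among workers with both tissues. The gasters were counted from another library kit, and 10 of the 12 pBL and pBB gasters came from workers whose brains were also sequenced.

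Of those 13 genes, 10 were higher in pBL brains with a larger change there than in the gaster. Their log2 fold changes were 1.19 to 5.18 in the brain and -0.86 to 0.65 in the gaster, and their pBB gasters were at 1.74 to 397 CPM. In 7 of the 10 the mean level of pBB gasters, in CPM of the joint fit, was above that of pBL brains, in CPM of the brain fit. SINVBB1_06655 had 117 ± 11.6 CPM in pBL gasters and 131 ± 29.2 CPM in pBB gasters (SD, n = 6 each), and the brain minus gaster difference was 4.86 on the log2 scale (adjusted p = 1.48e-18 by edgeR). SINVBB1_04895 had 347 CPM in pBL gasters and 389 CPM in pBB gasters, with a brain minus gaster difference of 3.66 ± 0.79 (SE, adjusted p = 0.0127 by edgeR). The remaining 3 genes differed the other way or in sign. SINVBB1_06156 and SINVBB1_03510 had larger changes in the gaster, at 1.97 and 1.30 in brain against 3.29 and 7.89 in gaster, and SINVBB1_03520 was at -1.12 in brain and 0.26 in gaster. SINVBB1_01949 was the gene called in opposite directions, at 2.59 in brain and -0.86 in gaster, with 44.6 CPM in pBL gasters and 80.7 CPM in pBB gasters. All of these were singled out after their values were seen.

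Among the 31 higher genes that were under 1 CPM in pBB brains, those that were also under 1 CPM in pBB gasters (21 genes) included 14 called higher in the gaster, and 0 of the 21 had a called difference between the tissues by edgeR, with 6 at an unadjusted p under 0.05. Of the 10 genes at 1 CPM or more in pBB gasters, 0 were called higher in the gaster (1 at an unadjusted p under 0.05), 1 was called lower, and 6 had a called difference between the tissues. The standard error of that difference ran from 0.46 (SINVBB1_13579) to 3.12 (SINVBB1_13687) over the 21 genes. Over the 10 it ran from 0.33 (SINVBB1_01566) to 1.14 (SINVBB1_10905b). The lack of calls among the 21 therefore does not show an equal change in both tissues. The split used the pBB gaster mean, which is also part of the gaster difference and of the difference between tissues. The unlike counts among the 21 and the 10 genes therefore follow in part from the split and are a description. At an expressed level, SINVBB1_00994 was higher in pBL in both tissues, with 35.3 CPM in pBL gasters and 18.4 CPM in pBB gasters and a gaster log2 fold change of 0.94.

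**Figure D4:**
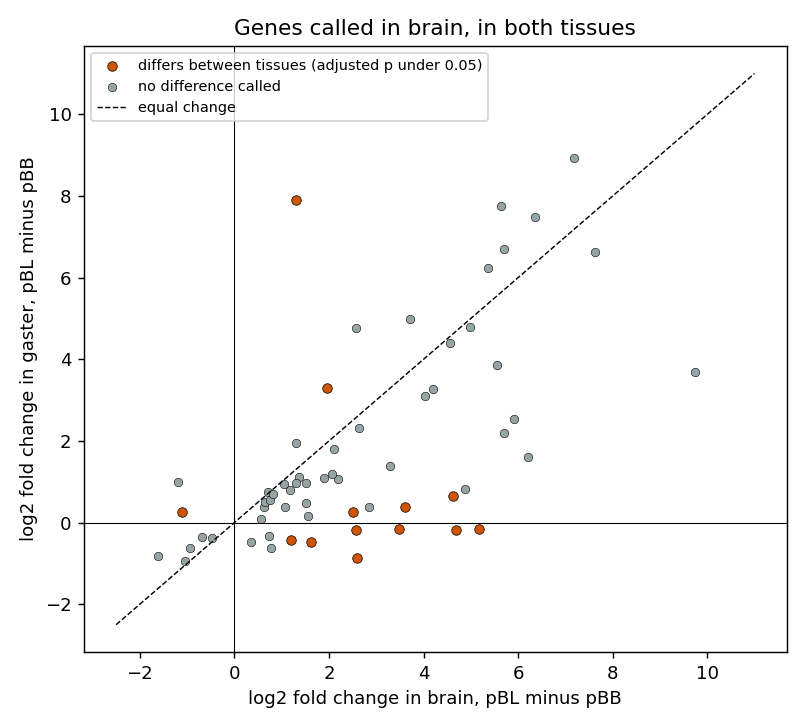
Each point is a gene called in brain, placed by its log2 fold change, pBL minus pBB, in the 14 brains and in the 12 gasters; the dashed line marks equal change. Orange marks the 13 genes whose difference was called between tissues, 10 of which lie at 1.19 to 5.18 on the brain axis and at -0.86 to 0.65 on the gaster axis.

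Transcripts that are abundant in the gaster and near absent in other SB/SB brains were also present at low levels in the brain libraries. A list of 576 genes with at least 10 CPM in mBB and mpBB gasters and under 1 CPM in the brains of those groups summed to 220, 285 and 711 CPM in the lowest, median and highest pBL brain, against 155, 202 and 294 CPM in the lowest, median and highest pBB brain. The highest was pBL replicate 2. The median of these sums was 0.152% of the gaster sum in pBL and 0.108% in pBB. For the 10 genes above, singled out by their brain and gaster values, the pBL brain level was 0.437% to 777% of the pBL gaster level. Their pBB brain level was 0.0693% to 252% of the pBB gaster level. The pBL and pBB values were 36.9% and 1.27% for SINVBB1_06655 and 10.1% and 0.787% for SINVBB1_04895. These percentages use CPM scaled over brains and gasters together, and so differ from ratios of the brain CPM given above. Of the 360 list genes tested in brain, 6 were called, all higher (1.67%), where the share called was 0.516% over all tested genes and 1.97% over those with a pBB mean under 1 CPM. The median fitted log2 fold change of the list was 0.38, with 299 of 360 genes positive. The median difference of mean log2 CPM was 0.18 over the 14 brains and -0.05 without pBL replicate 2. The part of gaster RNA in the brain calls was not tested.

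Called genes were unevenly spread along the row order of the deposited tables, which no source states to be genome order. Rows 4728 to 5414 held 32 of the 62 calls in 517 tested genes (6.19%), 26 higher and 6 lower, and so 51.6% of the calls in 4.31% of the tested genes. In rows 1 to 4727 (4040 tested) 0 genes were called by edgeR, 102 had an unadjusted p under 0.05, and DESeq2 called 6 and the fit with surrogate variables 4. In rows 6841 to 11068 (3708 tested) 0 genes were called by edgeR, 69 had an unadjusted p under 0.05, and DESeq2 called 2 and the fit with surrogate variables 4. Rows 4728 to 5414 held 44 of the calls of DESeq2 and 56 of those with surrogate variables. In rows 4728 to 5414, 21.7% of tested genes had an unadjusted p under 0.05 by edgeR, against 3.54% of all tested genes. The stretch was delimited after the calls were seen, by gaps of 150 rows with no call, so these shares are a description.

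The called genes of that stretch were of all levels, whereas those elsewhere mostly had a pBB mean under 1 CPM. In rows 4728 to 5414, 9 called genes had a pBB mean under 1 CPM, 11 had 1 to 10 CPM and 12 had more than 10 CPM. The stretch held 6 of the 7 lower genes, the exception being SINVBB1_09782, and 12 of the 13 genes whose difference was called between brain and gaster. Rows 11069 to 16224 held 23 calls in 2478 tested genes, 22 higher and 1 lower, of which 18 had a pBB mean under 1 CPM, with a median log2 fold change of 4.00 for the higher genes. The 7 calls in rows 5415 to 6840, in 1226 tested genes, were all higher. Neighbours in row order were called together in 9 adjacent pairs, which involved 16 genes, and both genes of each pair moved the same way. Of the 62 calls 55 were higher, so the shared direction follows in part from that balance. The number of pairs was not set against that given by the density of calls. Identifiers that end in a letter made up 11.3% of the calls and 2.80% of the tested genes, and what the letter marks is not stated in the sources used here.

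**Figure D5:**
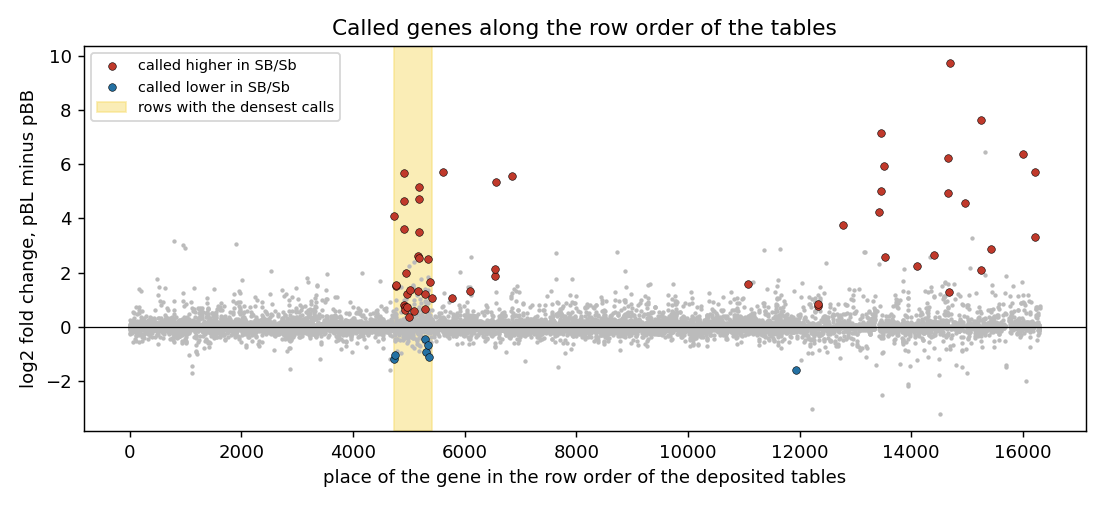
Each point is a tested gene, placed by its row in the deposited tables and by its log2 fold change, pBL minus pBB; red genes were called higher, blue genes lower, and the shaded band marks rows 4728 to 5414. The band holds 32 of the 62 calls, and 0 genes are called before row 4728 or in rows 6841 to 11068 by edgeR.

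The number of genes expressed in a brain did not differ detectably between genotypes. Genes at 1 CPM or more numbered 10519 ± 601 in pBL and 10341 ± 168 in pBB brains (SD, n = 7 each). The difference was 177 (exact permutation test without the pairing, two-sided, p = 0.652). Brain pBL replicate 2 had 11825 such genes, where the next pBL brain had 10632, and without it the difference was -40.3.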

How the data were processed

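The authors deposited, for each library, raw read counts per gene, with 1 column that ignores strand and 2 that each take 1 strand; the first 4 rows of each file are those of STAR's gene count table. Trim Galore, STAR and edgeR are named in the submitters' processing notes, with versions, genome build and annotation not given in the sources used here. A low-input SMARTer kit served for brains and a stranded KAPA kit for gasters, per the labels' protocols. The reverse-strand column held 49.7% to 50.1% of strand counts in brain, so the unstranded column was used, and reads of a gene and its antisense partner, or of near-identical copies, cannot be told apart. The 4 rows that name no gene were left out before scaling. Unmapped reads were 6.73% to 29.2% of pBL and pBB reads.

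Counts of all 28 brain libraries in 4 groups were fitted in R 4.3.3 with edgeR 4.0.16 (filter on expression by group, TMM scaling, quasi-likelihood test of pBL minus pBB, Benjamini-Hochberg adjustment over 12006 genes, threshold 0.05, no minimum fold). Standard errors were derived from the F statistic. CPM are relative to the TMM-scaled library, and log2 CPM used a prior count of 2. Brain CPM came from scaling the 28 brains, and gaster CPM from scaling all 52 libraries together. The sums over the list of gaster genes and the brain levels in percent of gaster levels also used the joint scaling. Principal components used the 1000 most variable genes. The difference between brain and gaster came from fitting all 52 libraries together, with unstranded counts for both tissues. Alternatives included DESeq2 1.42.0, 5 surrogate variables from sva 3.50.0, RLE factors, other low-count filters, the 2 groups alone, the replicate number as a block, covariates, fits within parts of the individual numbers, and leaving out libraries. The tests were checked on simulated data. The labels do not say that workers of a group came from separate donors beyond the limit on the use of stock colonies, so p-values measure the spread between these workers. No pair of libraries held identical counts.

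Deviations from the group means went together in pBL and pBB brains of equal number, with correlations of 0.143 to 0.497 in the 7 pairs and a mean of 0.337. The mean over pairs of unlike number was -0.0557. Centring on the group means ties this value to the mean of the equal pairs, so it is no separate baseline. Each of the 7 correlations exceeded the minimum of 0.1, so the numbers were taken to pair the samples. Individuals of a pair lie at most 12 apart in individual number, and what a number stands for is not stated in the labels.

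The comparison, the level classes and the rule for named genes were chosen with earlier results of these data known. The rule took the called higher gene of highest mean CPM among those under 1 CPM in pBB, the same among those at 1 CPM or more, and the 2 lower genes of highest mean CPM. Lists of genes by function and of cell type markers, planned for named genes, were not run.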

Additional observations from a re-analysis of the deposited data

Results flagged for a closer look

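Of 28 groups of library values checked for a library far from the rest, 8 held such a library. Most of these groups were levels of genes described by identifier, some of them chosen after their values were seen. The count of 8 is therefore a description and was not set against a chance rate. The total of pBL replicate 7 was 44.8 M counts in genes, where the next pBL brain held 27.3 M, and pBL replicate 2 had 11825 genes at 1 CPM or more, where the next had 10632. The share of unmapped reads in pBB replicate 4 was 6.73%, where the next pBB brain had 16.8%.

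The other 5 were pBB levels of single genes. SINVBB1_04895 was at 18.3 CPM in pBB replicate 1, where the next pBB brain was at 3.35 CPM. SINVBB1_09648 was at 72.3 CPM in pBB replicate 2, where the next lowest was at 92.1 CPM, and SINVBB1_12867 was at 139 CPM in pBB replicate 4, where the next lowest was at 164 CPM. SINVBB1_09782 was at 1.84 CPM in pBB replicate 3, where the next highest was at 0.955 CPM. SINVBB1_10484e was at 0.0413 CPM in pBB replicate 6, from 1 count, and at 0 in the others.

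Between brain and gaster the pBL minus pBB difference of 13 called genes differed by edgeR's quasi-likelihood test, among them SINVBB1_06655 by 4.86 and SINVBB1_04895 by 3.66 on the log2 scale.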

How the results depend on the processing

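The 62 calls (55 higher, 7 lower) became 102 (87 and 15) with DESeq2, 101 (79 and 22) with surrogate variables, 12 (12 and 0) within workers numbered under 140 and 38 (36 and 2) within those over 140, the last 2 with fewer brains. DESeq2 and the surrogate variables kept all 62. The cause of the higher counts was not tested. With the replicate number as a block, the paired fit called 67 genes (58 and 9), sharing 52 with the 62. It ended the calls of SINVBB1_09468 and SINVBB1_08239 and of none of the other 8 genes described by identifier with brain fold changes and tests. Leaving out each library gave 55 to 66 calls (49 to 61 higher, 5 to 10 lower), and 50 genes were called each time. The paired fit without replicates 2 of both groups, chosen after seeing the data, gave 51 (45 and 6). Counts stayed within 1.5 times 62 with RLE factors, other low-count filters, the 2 groups alone, the block with depth, the strand columns summed, covariates for merged titles and individual number, and without distant libraries. In every setting that tested them, 12 genes were called. Within workers numbered under 140, 552 genes had an unadjusted p under 0.05, 331 higher and 221 lower, where no difference would give 603.1. The difference in genes detected turned to -27 at 10 CPM, -106.5 without distant libraries and -40.3 without pBL replicate 2 (range -40.3 to 246.9 leaving out each library). Genes on in pBL and off in pBB numbered 2 at 0.5 against 0.05 CPM and 5 at 2 against 0.2 CPM. The median SE was 0.48 for genes under 1 CPM in pBB and 0.17 for all, and depth was not varied as a setting.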
